A study of Homo sapiens with 10 samples.

Results

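The genes described here build and serve the primary cilium and the centrosome. They are all genes in the deposited table whose symbol is IFT, BBS or CEP followed by a number and at most 1 further letter. This rule, which uses no measured value, took 56 of the 28380 genes, namely 14 IFT, 8 BBS and 34 CEP genes. They were measured in RPE-1 cells, an established human cell line derived from retinal pigment epithelium and immortalized with telomerase. In the SFN group, 5 replicates were treated with 25 µM sulforaphane (SFN), an isothiocyanate from cruciferous vegetables known as an activator of the transcription factor NRF2, and in the DMSO group 5 replicates received the vehicle, both for 4 h. All libraries are of the same line, so the comparison is of a single line, dose and time. The study's methods give 5 replicates for each treatment and describe replicates as independent in general terms, and the labels do not say whether these were separate cultures, so part of the spread that the p-values measure may be technical. The methods name libraries read at the 3′ ends of transcripts (Lexogen QuantSeq), whereas the labels name standard Illumina preparation, so that which part of a transcript the counts come from is not settled here.

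The primary cilium is a microtubule-based projection that grows from the mother centriole, the older of the pair of centrioles in a centrosome, when a cell leaves the cell cycle. Intraflagellar transport (IFT) trains carry cargo along it. The IFT-B complex is known for transport to the tip with kinesin-2, and IFT-A for the return with dynein-2. The BBSome, whose subunits are mutated in Bardet-Biedl syndrome, carries membrane proteins through the cilium. CEP genes share only a name for centrosomal proteins, and their products include centriole assembly factors, the appendages that dock the mother centriole to the membrane, the linker that holds the centrosomes together, and gatekeepers of the transition zone at the base of the cilium. RPE-1 is widely used to study cilia.

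Cilium genes are known targets of RFX factors, which bind the X-box, and NRF2 binds the antioxidant response element (ARE), so promoters were searched for both. RefSeq (GRCh38.p14) gave promoters of 300 bases, 250 before and 50 after the start, for 50 of the 56 genes. An arm of the X-box, GTTGCC, on either strand, was in the promoters of 20 of these 50 genes (40%), against 14.6% of the 27305 genes with a promoter. By family, it was in 46.2% of IFT, 42.9% of BBS and 36.7% of CEP genes. A full X-box, GTTNCC and GGNAAC with 0 to 3 bases between them, which can contain that arm, was in 3 of the 50 (6.0%), against 0.905% of all genes. These matches are shown because they are the most complete X-boxes of the set, in capitals, with 6 bases on each side, and they begin 12, 57 and 160 bases before the start.
IFT122: atgtacGTTGCCAGGGGTAACgcaggt
CEP135: gctcccGTTACCGGGGCAACcgcggc
CEP41: tcccgcGTTGCCCTTGGCAACcattga

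The ARE core TGACNNNGC, on either strand, was in 12% of the 50 genes and in 16.1% of all genes. The 250 bases before the start of CEP68, the gene with the largest decrease, at chr2:65056166-65056415 on the plus strand, and of IFT20, the gene that rose, at chr17:28335473-28335722 on the minus strand, are shown with that core in capitals. CEP68 holds 1 and IFT20 none.
CEP68: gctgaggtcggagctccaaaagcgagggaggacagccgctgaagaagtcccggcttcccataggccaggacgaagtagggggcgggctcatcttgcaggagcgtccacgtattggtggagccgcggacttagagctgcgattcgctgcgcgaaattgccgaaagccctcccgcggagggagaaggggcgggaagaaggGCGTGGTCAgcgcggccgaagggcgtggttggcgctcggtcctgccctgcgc
IFT20: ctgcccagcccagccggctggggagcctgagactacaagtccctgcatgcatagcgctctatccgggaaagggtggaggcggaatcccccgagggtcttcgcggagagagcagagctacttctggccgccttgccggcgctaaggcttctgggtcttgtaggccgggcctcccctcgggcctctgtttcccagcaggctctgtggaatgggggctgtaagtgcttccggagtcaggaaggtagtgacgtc

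Among the genes below that were lower in SFN, 3 of the 11 with a promoter held an X-box arm (27.3%), against 17 of the 38 that passed the test in neither direction (44.7%). They are given for comparison with the X-boxes above, with 8 bases on each side. The match begins 80 bases before the start in CEP85L, in 1 of its promoters, and at bases 2 and 15 after the start in BBS1 and CEP164. In CEP164 it lies on the other strand.
CEP85L: aagctcagGTTGCCtcttatga
BBS1: cggggccgGTTGCCaggacgac
CEP164: cgctgcagGGCAACaccccggc

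Transcripts of 10 CEP genes, led by CEP68, and of BBS1 and BBS2 were lower in SFN, and those of IFT20 were higher. Levels are given as CPM, a gene's counts relative to the TMM-scaled total of the library, and 5 values in a row are those of replicates 1 to 5. The test was edgeR's quasi-likelihood test, adjusted by the Benjamini-Hochberg method over all 13378 genes tested, and a gene is called lower or higher at an adjusted p under 0.05. Gene positions are those of GENCODE 44 (GRCh38). All 56 genes passed the filter on low counts. Of these, 12 were lower in SFN (21.4%), where 13.9% of all genes tested were lower, and 1 was higher (1.79%), where 9.07% of all genes were higher, so that 13 of the 56 passed the test in either direction, beside 23.0% of all genes. At an unadjusted p under 0.05, 17 were lower and 1 higher, but the share of all genes at that threshold is not given here. The log2 fold change was below 0 for 39 of the 56, against 52.6% of all genes, and its median was -0.16, against -0.03 for all genes. The share lower was 29.4% in CEP genes (10 of 34) and 25% in BBS genes (2 of 8), and no IFT gene of the 14 was lower, a difference between families that was not tested. Without DMSO replicate 1, described next, the shares lower were 55.9% in CEP (19 of 34), 37.5% in BBS (3 of 8) and 14.3% in IFT genes (2 of 14). These families follow the symbols in the deposited table, so each share leaves out genes of its kind with other names. For CEP genes, FOPNL, also called CEP20, is an example. Of 7 BBSome partners and BBSome subunits with other names, none was lower and 1 was higher, with and without DMSO replicate 1. Of 9 IFT subunits with other names, given below, 4 were lower (44.4%). Without DMSO replicate 1, 7 of the 9 were lower (77.8%), where 23.5% of all genes were.

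DMSO replicate 1 stood apart from the other DMSO libraries, while library totals ranged from 12375860 to 20666692 counts. Its mean Spearman correlation with them across genes was 0.935, against 0.979 to 0.982 for the others. When log2 CPM, taken relative to all libraries, was set against the log2 of transcript length, its slope was -0.271, that of DMSO replicates 2 to 5 was 0.0872 to 0.148, and that of the SFN libraries -0.183 to 0.109. DMSO replicate 1 was the lowest DMSO library for 27 of the 56 genes and the highest for 21. Of all 13378 genes tested, it was the lowest for 5976 and the highest for 5423. Without it, 24 genes were lower (42.9%), against 23.5% of all genes, and 3 were higher, against 22.5%, with a median of -0.23 against -0.003. All 13 genes called with every library were also called without it, and 14 were added. By limma-voom on quantile-normalized values, 13 genes were lower and 3 higher, and the share of all genes called by it is not given here.

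**Figure D1:**
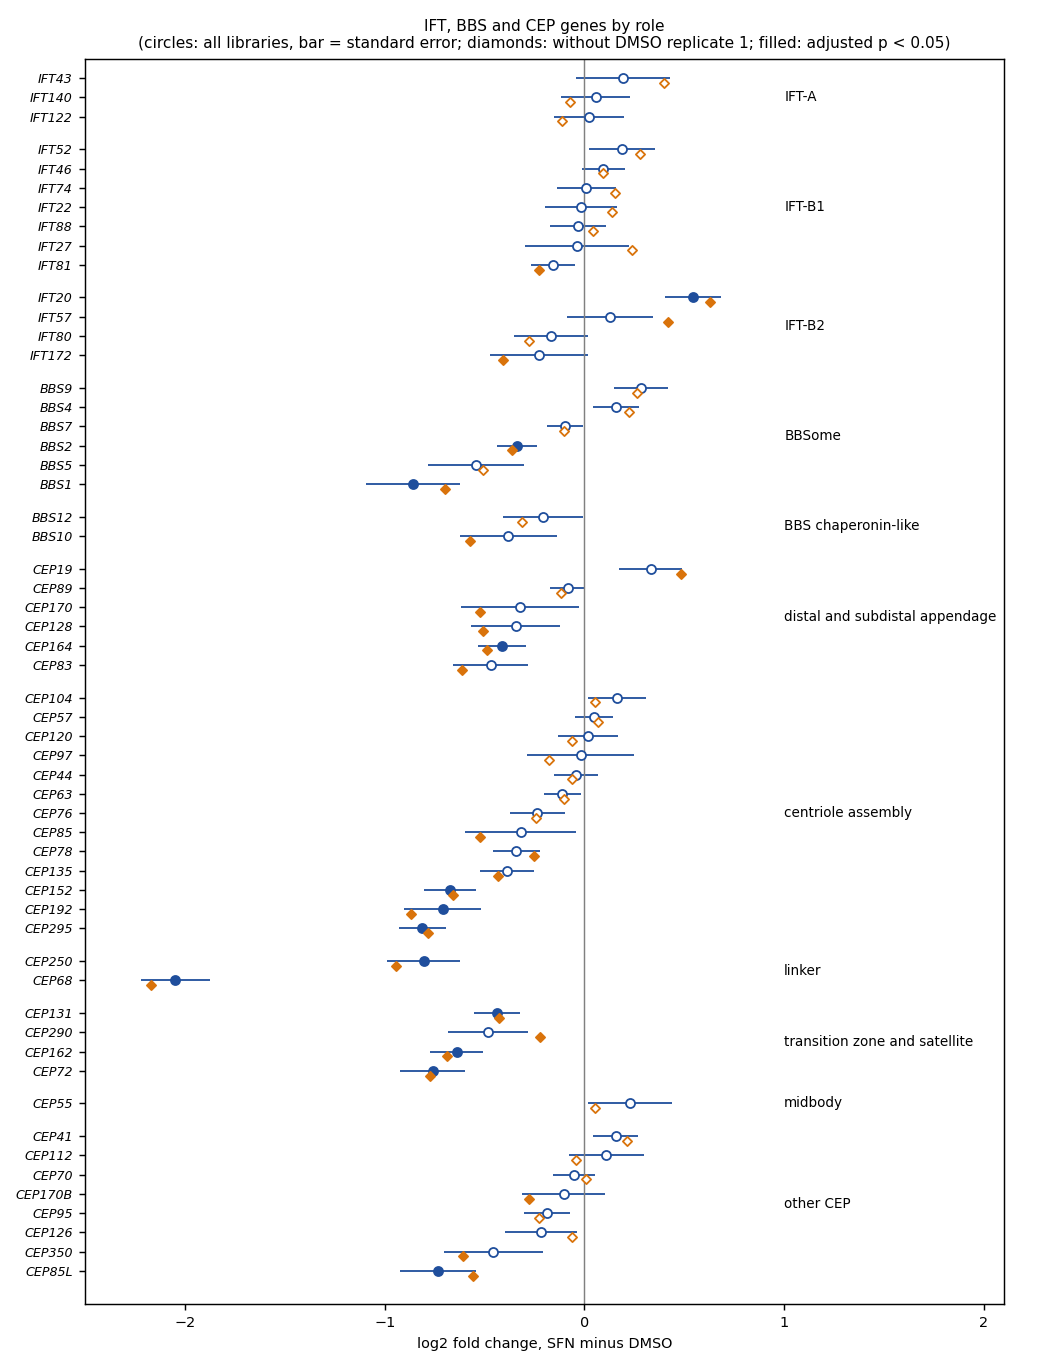
Log2 fold change of SFN against DMSO (x axis) for each of the 56 genes (y axis), grouped by role. Circles with bars are estimates with their standard error from all 10 libraries, diamonds leave out DMSO replicate 1, and filled symbols have an adjusted p under 0.05. CEP68 stands at -2.05, and the only filled circle above 0 is IFT20.

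Of the 14 IFT genes, 8 had a log2 fold change above 0 and 6 below. The median was 0.02 with all libraries and 0.11 without DMSO replicate 1, where that of all genes was -0.003. Over the other scalings it was between -0.07, with scaling by library size only, and 0.15, with quantile-normalized values, so its sign depended on the scaling. The median of all genes was -0.11 with library size only. With quantile-normalized values 3 of the 14 were below 0 (21.4%), against 46.2% of all genes, whose median was then 0.04. The 3 IFT-A genes gave 0.02 for IFT122 and 0.06 for IFT140, which are core subunits, and 0.19 for IFT43. None passed the test. The 7 IFT-B1 genes ranged from -0.16 to 0.19, and none passed it either. Summed over the 14 genes, levels were 334 to 434 CPM in DMSO and 367 to 391 CPM in SFN.

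IFT20 was the exception. It encodes an IFT-B2 subunit that also resides at the Golgi and is known for carrying membrane proteins from there to the cilium (ENSG00000109083, chr17:28328325-28335489, minus strand). Its levels were 23.9, 20.5, 17.3, 18.9 and 15.6 CPM in DMSO and 31.2, 31.7, 26.1, 28.0 and 23.4 CPM in SFN. The groups overlapped by the highest DMSO and the lowest SFN library alone, which were DMSO replicate 1 and SFN replicate 5. Its log2 fold change was 0.54 ± 0.14 (SE, n = 5 and 5, adjusted p = 0.014 by edgeR), and 0.63 without DMSO replicate 1. The last 500 bases of its transcript, where reads from the 3′ end would lie, overlap TMEM97 on the other strand, whose log2 fold change was 0.34 (adjusted p = 0.097 by edgeR), and whether counting used strand is not given in the sources used here.

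IFT57, an IFT-B2 subunit, had the highest CPM of the IFT genes. It lay at 151, 75.5, 69.2, 73.2 and 65.4 CPM in DMSO and at 98.1, 102, 93.8, 95.1 and 85.4 CPM in SFN. DMSO replicate 1 exceeded every SFN library, and the other DMSO libraries were below all of them. With all libraries the log2 fold change was 0.13 (adjusted p = 0.73 by edgeR), and without DMSO replicate 1 it was 0.42 (adjusted p = 8.9e-04 by edgeR). The other IFT-B2 genes, IFT80 and IFT172, gave -0.17 and -0.23, and of the 2 IFT172 was called lower, at -0.41, when DMSO replicate 1 was left out. IFT81, an IFT-B1 gene whose product binds tubulin together with that of IFT74, was likewise called lower without that library, at -0.23.

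Of the 6 BBSome genes with a BBS symbol, BBS1 and BBS2 were lower. BBS1 (chr11:66510606-66533613, plus strand), which had few reads, with 12 to 43 counts per library, had 2.68, 1.59, 1.90, 1.69 and 1.42 CPM in DMSO and 1.07, 1.12, 0.894, 0.945 and 1.06 CPM in SFN. Every SFN library was below every DMSO library. This was a log2 fold change of -0.86 ± 0.23 (SE, adjusted p = 0.02 by edgeR), and the adjusted p rose to 0.055 without SFN replicate 3 and to 0.051 without SFN replicate 4. BBS2 (chr16:56465640-56582667, minus strand) went from 21.6 ± 1.23 CPM to 17.1 ± 1.48 CPM (SD, n = 5), a log2 fold change of -0.34 ± 0.10 (SE, adjusted p = 0.032 by edgeR). Its libraries did not overlap, but the call held in 8 of 19 alternative fits and was lost when any library other than DMSO replicate 1 and SFN replicate 2 was left out.

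The other BBSome genes with a BBS symbol did not pass the test. BBS5 gave -0.54, BBS7 -0.10, BBS4 0.16 and BBS9 0.28. The BBSome subunits TTC8 and BBIP1, counted below with the BBSome partners, gave -0.255 and 0.001 and did not pass it either. BBS7, the BBS gene with the highest CPM, was at 40.2, 41.6, 40.9, 39.5 and 38.7 CPM in DMSO and at 38.8, 38.9, 38.4, 33.8 and 37.9 CPM in SFN, where the groups overlapped. BBS10 and BBS12, chaperonin-like proteins that assemble the BBSome, gave -0.38 and -0.21 with all libraries, and without DMSO replicate 1 BBS10 was lower at -0.57. Both BBS1 and BBS2 share the end of their transcript with an unnamed gene on the same strand that has no counts of its own in the table, and how shared reads were counted is not given in the sources used here.

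The centrosome linker held the largest change. CEP68 (ENSG00000011523, chr2:65056354-65087004, plus strand) encodes a linker protein that is lost from the centrosome in mitosis. It had 9.22, 15.4, 17.1, 14.0 and 14.0 CPM in DMSO and 3.34, 3.02, 3.43, 3.71 and 3.32 CPM in SFN. The SFN libraries differed little from each other, and all were well below the lowest DMSO library, DMSO replicate 1. CEP68 was 4.13-fold lower in SFN, with a log2 fold change of -2.05 ± 0.17 (SE, adjusted p = 8.5e-06 by edgeR), and called in 19 of 19 alternative fits. It was the only one of the 56 genes with an absolute log2 fold change above 1, where 5.76% of all genes tested were called below -1 and 2.94% above 1. The end of its transcript overlaps RAB1A on the other strand, which went the other way, from 213 to 268 CPM (log2 fold change 0.34, adjusted p = 0.038 by edgeR). Where CEP68 and RAB1A overlap, their reads cannot be told apart without strand, and its use in counting is not given in the sources used here.

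CEP250, or C-NAP1, anchors the linker at the proximal end of the centriole (chr20:35455164-35519280, plus strand). It was at 124, 223, 257, 222 and 201 CPM in DMSO and at 130, 94.2, 104, 125 and 135 CPM in SFN. The groups overlapped through DMSO replicate 1 alone, which lay among the SFN libraries. The log2 fold change was -0.80 ± 0.18 (SE, adjusted p = 0.0079 by edgeR) and -0.95 without that library. CROCC, or rootletin, which forms the fibres of the linker but is not named CEP, was at 19.1 ± 1.59 CPM in DMSO and 16.7 ± 2.87 CPM in SFN (SD, n = 5), with an adjusted p of 0.33 by edgeR.

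**Figure D2:**
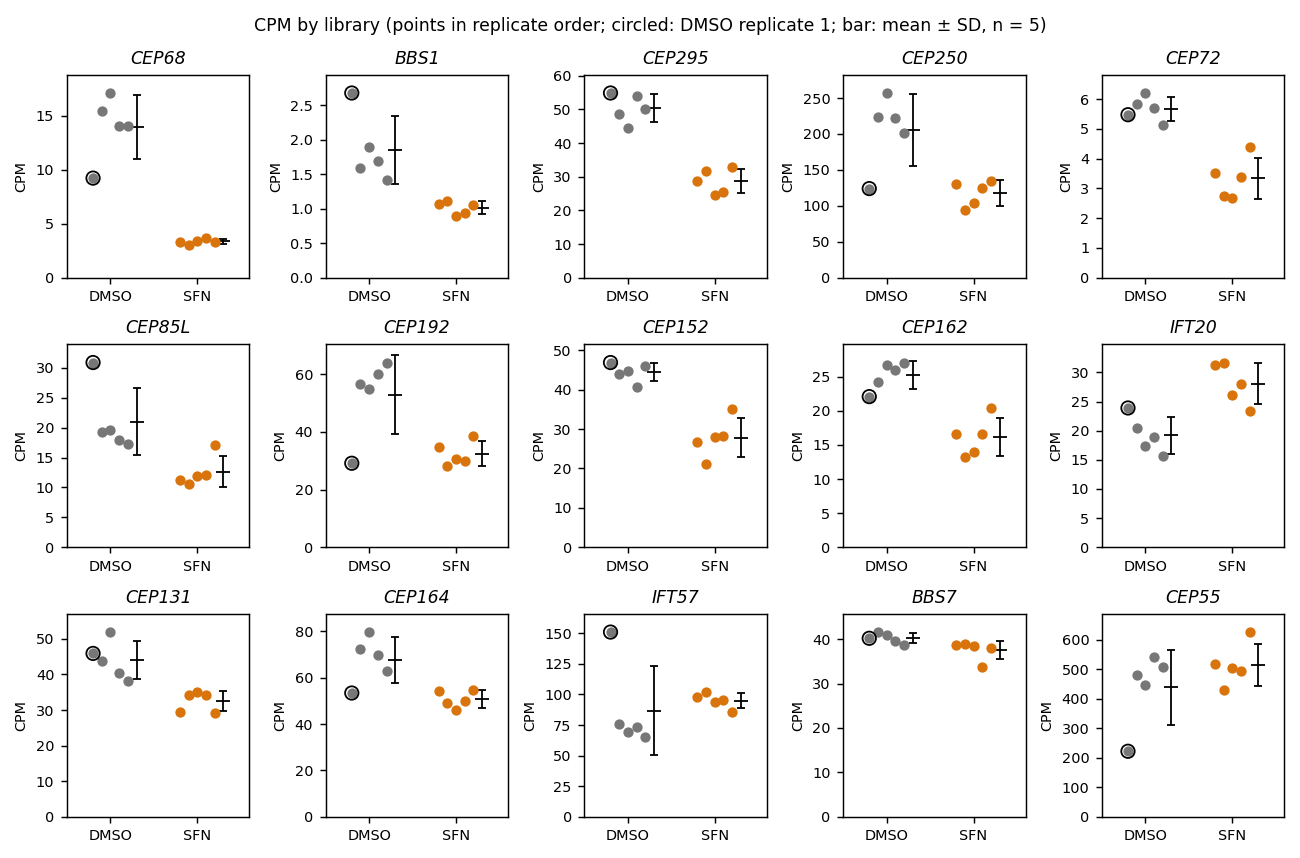
CPM in each library (y axes start at 0) for 15 genes, those called with the largest change and the IFT, BBS and CEP gene with the highest CPM. Grey points are the 5 DMSO and orange points the 5 SFN libraries in replicate order, DMSO replicate 1 is circled, and bars are the mean ± SD. In CEP68 all SFN points lie between 3.02 and 3.71 CPM, and in IFT57, CEP192, CEP250 and CEP55 the circled point lies away from the other grey points.

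Among 13 genes of centriole assembly, 3 were lower and none higher. CEP295, which lets new centrioles elongate and become centrosomes (chr11:93661682-93730358, plus strand), was at 54.9, 48.7, 44.5, 54.0 and 50.1 CPM in DMSO and at 28.6, 31.8, 24.6, 25.6 and 33.0 CPM in SFN. The gap between the groups was wider than the spread within either. Its log2 fold change was -0.81 ± 0.12 (SE, adjusted p = 3.9e-04 by edgeR). The end of its transcript overlaps TAF1D on the other strand, whose log2 fold change was -0.80 (adjusted p = 0.054 by edgeR), and reads of the 2 genes cannot be told apart without strand.

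CEP152 and CEP192 recruit PLK4, the kinase that starts centriole duplication. CEP152 (chr15:48712928-48811146, minus strand) was at 46.9, 43.9, 44.7, 40.8 and 46.1 CPM in DMSO and at 26.8, 21.1, 28.1, 28.3 and 35.0 CPM in SFN, with no overlap and a log2 fold change of -0.67 ± 0.13 (SE, adjusted p = 0.0028 by edgeR). CEP192 (chr18:12991362-13125052, plus strand) was at 29.1, 56.4, 54.7, 60.1 and 64.0 CPM in DMSO and at 34.8, 28.0, 30.5, 29.8 and 38.6 CPM in SFN. Here DMSO replicate 1 lay among the SFN libraries, and the other DMSO libraries lay above all of them. SFN differed from DMSO by a log2 fold change of -0.71 ± 0.19 (SE, adjusted p = 0.02 by edgeR) and -0.87 without DMSO replicate 1, while the adjusted p rose to between 0.05 and 0.056 when DMSO replicate 4 or 5 or SFN replicate 2, 3 or 4 was left out. The other 10 genes ranged from -0.39 to 0.16. Of these, CEP135, a protein of the centriole wall, CEP78, and CEP85 were also lower without DMSO replicate 1, at -0.43, -0.25 and -0.52.

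The 4 genes of the transition zone and of centriolar satellites, granules around the centrosome that deliver ciliary proteins, all had a log2 fold change below 0, and 3 were lower. The satellite gene CEP72 (chr5:612340-667168, plus strand) had 5.48, 5.83, 6.21, 5.72 and 5.15 CPM in DMSO and 3.52, 2.76, 2.68, 3.37 and 4.38 CPM in SFN. CEP162 (chr6:84124241-84227643, minus strand), which helps to set up the transition zone, had 22.1, 24.2, 26.7, 26.0 and 27.1 CPM in DMSO and 16.6, 13.3, 13.9, 16.6 and 20.5 CPM in SFN. CEP131 (chr17:81189593-81222999, minus strand), another satellite protein, had 45.9, 43.7, 51.9, 40.3 and 38.2 CPM in DMSO and 29.5, 34.2, 35.1, 34.3 and 29.2 CPM in SFN. In none of the 3 did the groups overlap. Their log2 fold changes were -0.76 ± 0.16 for CEP72 (SE, adjusted p = 0.0057 by edgeR), -0.64 ± 0.13 for CEP162 (adjusted p = 0.0046) and -0.44 ± 0.11 for CEP131 (adjusted p = 0.017, and 0.052 without SFN replicate 1).

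CEP290, a gatekeeper of the transition zone that is often mutated in Joubert syndrome and retinal dystrophy, was at 229, 109, 122, 111 and 115 CPM in DMSO and at 101, 101, 88.2, 93.1 and 109 CPM in SFN. All SFN libraries were below the DMSO libraries, by a narrow margin, and DMSO replicate 1 was far above the rest. The log2 fold change was -0.48 ± 0.20 (SE, adjusted p = 0.11 by edgeR) with all libraries and -0.22 (adjusted p = 0.038 by edgeR) without that library, so the estimate without it was closer to 0 and had the smaller adjusted p. The end of its transcript overlaps C12orf29 on the other strand, at -0.34.

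Of 6 genes of the distal and subdistal appendages, CEP164 was lower. CEP164 (chr11:117314557-117413266, plus strand), a distal appendage protein needed to dock vesicles and to start the cilium, was at 53.4, 72.4, 79.7, 69.8 and 62.9 CPM in DMSO and at 54.4, 49.3, 45.9, 49.8 and 54.9 CPM in SFN. Only DMSO replicate 1 lay within the SFN range. Its log2 fold change was -0.41 ± 0.12 (SE, adjusted p = 0.028 by edgeR). This call held in 11 of 19 alternative fits and was lost when any of DMSO replicates 2, 3 and 4 or SFN replicates 2, 3 and 4 was left out, with an adjusted p between 0.061 and 0.08 by edgeR.

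Of the other 5 appendage genes, 4 passed the test without DMSO replicate 1 and none with all libraries. With all libraries, CEP83 gave -0.47, CEP128 -0.34, CEP170 -0.32, CEP89 -0.08 and CEP19 0.33. Without that library CEP83, a distal appendage protein, and CEP128 and CEP170, subdistal ones, were lower at -0.61, -0.51 and -0.53. CEP19, which helps IFT-B to enter the cilium, was then higher at 0.48. CEP170 has a near-identical pseudogene, CEP170P1, at 4 to 58 counts, and how reads that match both were counted is not given in the sources used here.

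Of the 8 other CEP genes, 1 was lower. CEP85L (chr6:118460772-118710075, minus strand), a centrosomal protein known from lissencephaly, was at 30.9, 19.2, 19.6, 18.0 and 17.3 CPM in DMSO and at 11.3, 10.6, 11.9, 12.1 and 17.1 CPM in SFN, without overlap by a narrow margin between DMSO replicate 5 and SFN replicate 5. This was a log2 fold change of -0.73 ± 0.19 (SE, adjusted p = 0.015 by edgeR), and -0.56 without DMSO replicate 1. The other 7 genes ranged from -0.46 to 0.16, and of these CEP350 and CEP170B were lower without DMSO replicate 1, at -0.61 and -0.28.

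CEP55, the CEP gene with the highest CPM, acts at the midbody in the last step of cell division rather than at the cilium. It was at 222, 479, 445, 541 and 507 CPM in DMSO and at 518, 429, 504, 493 and 626 CPM in SFN. DMSO replicate 1 was the only library under 429 CPM, and the other DMSO libraries, at 445 to 541 CPM, lay within the range of the SFN libraries. Its log2 fold change was 0.23 (adjusted p = 0.50 by edgeR), and 0.05 without that library. Of the 56 genes, 11 were lower in every SFN library than in any DMSO library, where 11.1% of all genes tested were, and 0 were higher in every SFN library, where 8.78% of all genes were. Without DMSO replicate 1 these were 21 lower and 4 higher, beside 19.6% and 16.6% of all genes. Fewer transcripts in each cell and fewer cells that hold them cannot be told apart in these bulk libraries.

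Of the 12 lower genes, 7 were among the 19 with the longest transcripts. The canonical transcripts of the 56 genes had a median length of 4040 bases, against 3170 for all genes tested. Of the 19 shortest, with 816 to 3238 bases, 2 were lower and 1 higher, and the median log2 fold change was -0.03. Of the 18 with 3368 to 5395 bases, 3 were lower, with a median of -0.13. Of the 19 longest, with 5560 to 15434 bases, 7 were lower, with a median of -0.39. In the same 3 length classes, 10.8%, 17.4% and 17.3% of all genes were lower, with medians of 0.04, -0.04 and -0.13. Without DMSO replicate 1, the library with the steepest length slope, 3, 8 and 13 of the genes were lower from the shortest to the longest class, and 3, 0 and 0 higher. Their medians were then 0.055, -0.197 and -0.433, and those of all genes in the same classes 0.159, -0.085 and -0.219. In that fit 23.5% of all genes were lower and 22.5% higher, and these shares are not given by class here. It had no length correction, and its libraries had length slopes of 0.0872 to 0.148 in DMSO and -0.183 to 0.109 in SFN. Spearman's rho between log2 fold change and length was -0.455 over the 56 genes and -0.158 over 13324 genes, a description of points that share the same libraries. Since each library's values also varied with length, and DMSO replicate 1 most, a fit with each library's length trend removed was added after seeing the data. It gave 12 lower and 2 higher, and CEP85L lost its call there (adjusted p = 0.058 by edgeR). How far length had a part in the single differences was not tested further.

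**Figure D3:**
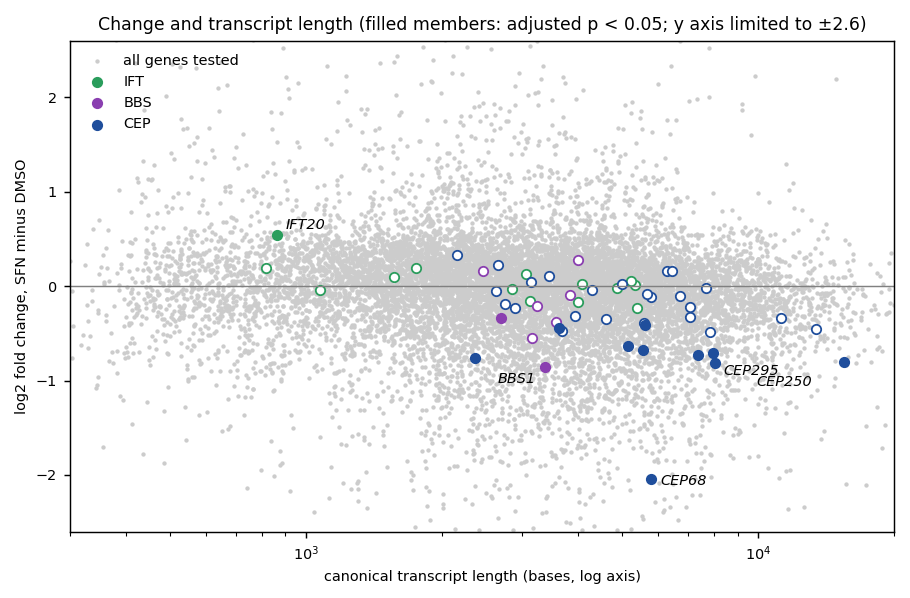
Log2 fold change of SFN against DMSO (y axis, shown from -2.6 to 2.6) against canonical transcript length in bases (log x axis). Small grey points are all genes tested, coloured points the IFT, BBS and CEP genes, filled where the adjusted p was under 0.05. Among the filled points, 7 lie at 5560 bases or more, all of them CEP genes, and IFT20, at 860 bases, is the filled point above 0.

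A list of 132 further cilium and centrosome genes with other names was set beside the 56. Of 124 tested, 25 were lower (20.2%) and 5 higher (4.03%), with a median log2 fold change of -0.24, beside the same background of 13.9% and 9.07%. Without DMSO replicate 1, 53 were lower (42.7%) and 7 higher, where 23.5% of all genes were lower and 22.5% higher. Of 9 IFT subunits with other names, 4 were lower. TTC30B, an IFT-B subunit, fell from 5.78 ± 0.952 to 1.31 ± 0.594 CPM (SD, n = 5), a log2 fold change of -2.14 ± 0.29 (SE, adjusted p = 2.5e-04 by edgeR). Its near-identical paralog TTC30A gave -0.83, and counts of the 2 genes may be shared. TRAF3IP1 and TTC26, also IFT-B subunits, gave -0.63 and -0.44.

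The motors of IFT included KIF3A, the kinesin-2 motor subunit, at 65.5 ± 32.6 CPM in DMSO and 32.6 ± 4.63 CPM in SFN (SD, n = 5), a log2 fold change of -1.01 (adjusted p = 0.015 by edgeR) that became -0.65 without DMSO replicate 1. The dynein-2 heavy chain gene DYNC2H1 was lower at -0.56, and the other 6 motor genes tested did not pass. The next list held 7 BBSome partners and BBSome subunits with other names. Of these, MKKS, also known as BBS6, was higher at 0.90 ± 0.14 (SE, adjusted p = 7.1e-04 by edgeR), from 10.9 ± 1.78 to 20.3 ± 2.51 CPM, with no overlap. Of 22 genes of the transition zone and of the MKS and NPHP modules, only CC2D2A was lower, at -0.58, and of 12 genes of the appendages and the centriole cap only CNTRL, or centriolin, at -0.61.

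In centriole assembly, 4 of 12 genes were lower and 1 was higher. SASS6, which forms the cartwheel of new centrioles, fell from 26.0 ± 2.94 to 11.7 ± 1.91 CPM (SD, n = 5, log2 fold change -1.15, adjusted p = 1.0e-04 by edgeR), and CENPJ, PLK4 and SFI1 gave -0.44, -0.42 and -0.40. POC1B was higher at 0.42. Of 18 genes of the pericentriolar material and satellites, TUBGCP5 and TUBGCP3, of the γ-tubulin ring complex, were lower at -0.90 and -0.45, as were the satellite genes CCDC66 and KIAA0753 at -0.85 and -0.80. FOPNL, also called CEP20, was higher at 0.53, and so was NEK2, the kinase that releases the linker, at 0.35.

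Among 11 genes of membrane GTPases and lipid trafficking, 2 were lower. INPP5E, the lipid phosphatase of the ciliary membrane, fell from 13.1 ± 1.30 to 5.17 ± 0.563 CPM (SD, n = 5, log2 fold change -1.34, adjusted p = 2.2e-05 by edgeR), and EHD1, which shapes the ciliary vesicle, from 73.8 ± 8.80 to 33.3 ± 1.94 CPM (log2 fold change -1.15). In cilium disassembly, NEDD9 was lower at -1.33, whereas its partner AURKA was higher at 0.40. All 11 tested genes of the Hedgehog pathway, which signals through the cilium, had a log2 fold change below 0. Of these, 4 were lower. The receptor PTCH1, at 0 to 55 counts, gave -1.78 ± 0.51 (SE, adjusted p = 0.026 by edgeR), the transcription factor GLI2 -1.27, KIF7 -0.99 and EVC -0.65. Over all genes tested, 52.6% were below 0 and 13.9% lower. Without DMSO replicate 1, 10 of the 11 were lower, where 23.5% of all genes were. Of 7 genes of RFX factors and their partners, 2 were lower. They were RFX2, a factor that binds the X-box, and RFXAP, a partner of RFX5, both at -0.93. RFX1, RFX3, RFX5, RFX7 and RFXANK ranged from -0.43 to 0.04 and did not pass the test. Without DMSO replicate 1, 5 of the 7 were lower (71.4%), beside the same 23.5% of all genes.

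**Figure D4:**
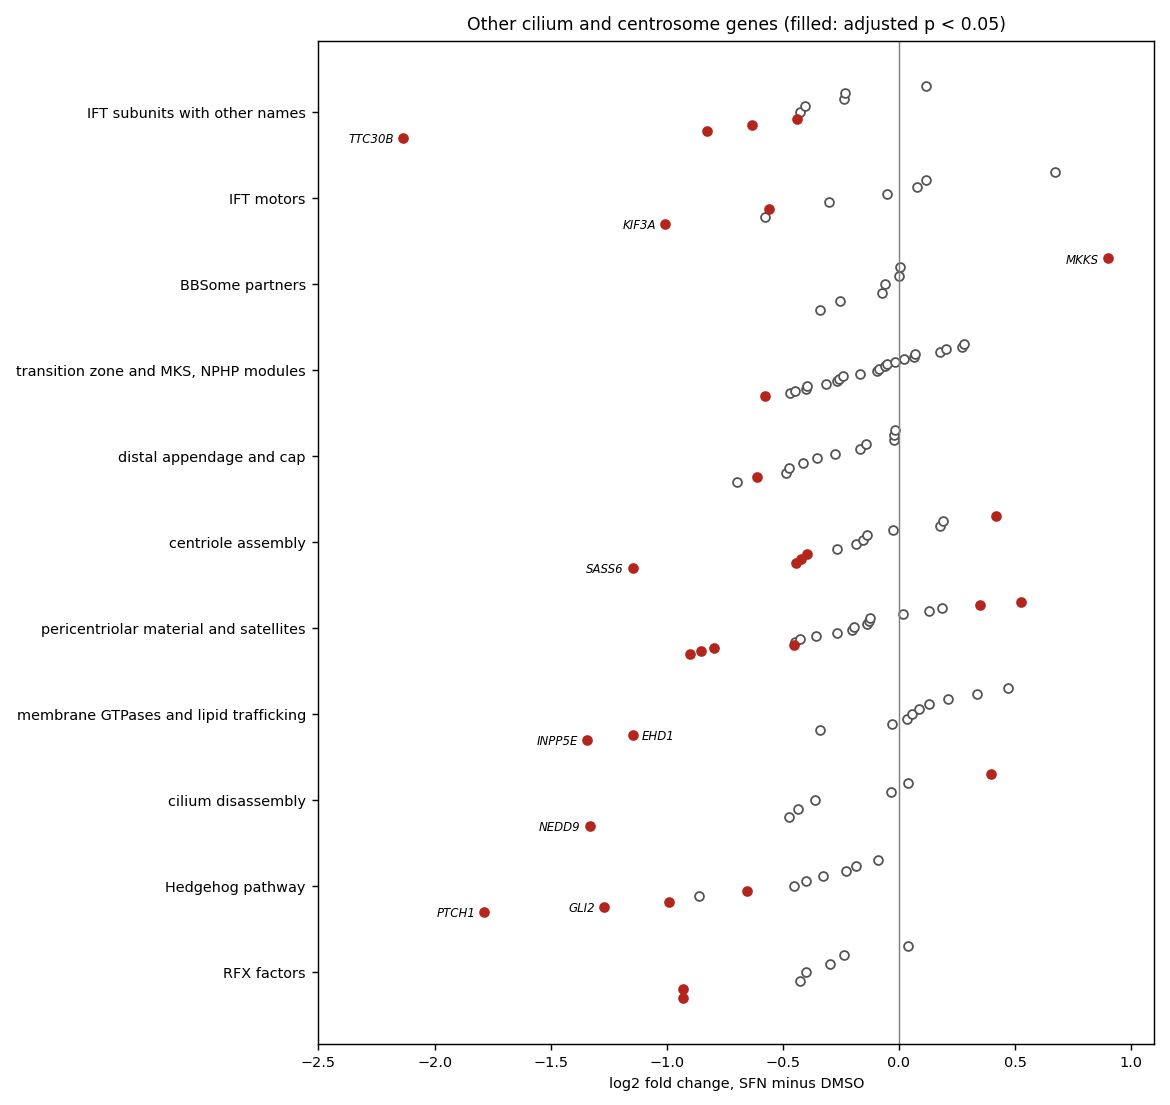
Log2 fold change of SFN against DMSO (x axis) for the tested genes of 11 lists of other cilium and centrosome genes (y axis). Each point is a gene, filled where the adjusted p was under 0.05. TTC30B at -2.14 and PTCH1 at -1.78 lie farthest to the left, and MKKS at 0.90 farthest to the right.

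Among markers of retinal pigment epithelium, MITF was at 50.8 ± 4.95 CPM in DMSO and 23.4 ± 2.78 CPM in SFN and OTX2 at 14.0 ± 2.14 and 9.01 ± 0.286 CPM (SD, n = 5), both lower (log2 fold changes -1.12 and -0.64), while BEST1 was at 18.8 ± 13.7 and 42.4 ± 36.7 CPM (log2 fold change 1.17, adjusted p = 0.16 by edgeR, and 1.68, adjusted p = 0.0096, without DMSO replicate 1). KRT8, KRT18 and PMEL gave 0.23, 0.27 and 0.14 and did not pass the test, and without DMSO replicate 1 KRT8 was higher at 0.37. Over the 6 genes tested the median was 0.18. RPE65 and RLBP1 were near 0 in every library, with at most 3 and 4 counts. The summed level of this list was 582 to 875 CPM in DMSO and 566 to 993 CPM in SFN. Of the markers of multiciliated cells, FOXJ1, TEKT1, DNAI1, RSPH1 and SPAG6 had at most 2 counts in any library. TEKT2 had at most 5 and PIFO 3 to 14. MCIDAS, CCNO and DNAH5 had 5 to 132, 42 to 80 and 21 to 71 counts. Of the 12, these 3 could be tested. MCIDAS was lower (log2 fold change -2.57, 5.69 ± 1.44 to 0.937 ± 0.746 CPM), and CCNO and DNAH5, at 0.08 and -0.18, did not pass the test. The list summed to 11.4 to 15.0 CPM in DMSO and 6.4 to 9.23 CPM in SFN. EPCAM, PTPRC and PECAM1, markers of other cells, had at most 2, 6 and 9 counts, and COL1A1 was at 15.2 and 11.3 CPM. Of 22 proliferation genes, 2 were lower (9.09%), CCNE2 at -2.15 and CENPE at -0.74, and 2 higher (9.09%), UBE2C at 0.78 and AURKB at 0.45. Of all genes, 13.9% were lower and 9.07% higher. Without DMSO replicate 1, 5 of the 22 were lower and 6 higher, where 23.5% of all genes were lower and 22.5% higher. With all libraries the median was 0.04 (-0.06 with scaling by library size only). The summed level was 8520 to 9220 CPM in DMSO and 7800 to 9740 CPM in SFN. Whether the share of cycling cells had a part in the centriole genes was not tested.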

How the data were processed

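RNA from RPE-1 cells was sequenced by the authors. Their methods name Lexogen QuantSeq libraries, which read the 3′ ends of transcripts, and the labels name standard Illumina preparation, a difference that is not resolved here. The authors deposited raw counts per Ensembl gene for 5 DMSO and 5 SFN libraries, without normalization. Their text names the Bluebee pipeline on GRCh38, and their processing notes also list FastQC, STAR, featureCounts and edgeR. Use of strand or of molecular identifiers is not given in the sources used here.

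Counts were filtered with filterByExpr, scaled by TMM and tested with glmQLFit and glmQLFTest of edgeR 4.0.16 in R 4.3.3, two-sided, with no covariate. The authors' limma model with dream weights and repeated measures was not run, and its nearest alternative here was limma-voom after quantile normalization. Standard errors were derived from the F statistic, as |log2 fold change| over its square root. Alternatives used limma 3.58.1 and DESeq2 1.42.0. Scripts were tested on simulated data. No replicates differed by less than sampling noise. GENCODE 44 (GRCh38) gave positions and canonical transcripts for 28145 of 28380 identifiers.

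The members, role groups and lists were chosen with earlier results of these data known. Every called member is named. Library values are given for the 12 called members with the largest change and a mean of at least 1 CPM, and for the IFT, BBS and CEP gene with the highest CPM. Members not called are named where their role group has 6 or fewer members, and up to 5 called genes are named per list. The library values of CEP290, the genes called without DMSO replicate 1 but not with all libraries, and CROCC were added after values were seen.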

Additional observations from a re-analysis of the deposited data

Results flagged for a closer look

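In 5 of the 32 groups of 5 libraries examined for 16 genes (the 13 called, IFT57, BBS7 and CEP55), a single library stood apart, measured as its gap to the nearest library divided by the group's range (above 0.71). In IFT57, DMSO replicate 1 stood above the other DMSO libraries with a ratio of 0.881, and in CEP85L it did so with 0.828. In CEP192 it stood below them with 0.733. Among SFN libraries, replicate 5 stood above the others in CEP85L (0.763), and replicate 4 below the others in BBS7 (0.806). Over all 56 genes, 24 of 112 groups held such a library, against 5.6 by chance at 1 in 20, and it was DMSO replicate 1 in 16 of them and SFN replicate 2 in 4.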

How the results depend on the processing

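None of the 16 genes named above for their call or CPM reversed under the 19 alternative fits. Of 304 such values, 271 kept their direction and call, 30 kept the direction and lost the call, most often in BBS2, CEP164, CEP192 and BBS1, and 3, all of IFT57, gained it. The 12 lower genes became 27 with limma-voom quality weights, 23 without DMSO replicate 1 and SFN replicate 2 together, and 1, CEP68, with an absolute log2 fold change above 1 also required. The 1 higher gene became 3, 5, 3, 2 and 0 with quantile-normalized values, quality weights, both libraries left out, the length correction and the fold change limit. In the same order as for the lower genes, the 25 related genes that were lower became 65, 55 and 8. The 5 that were higher became 3 with library size only, 13 with quality weights, 2 with no filter, 8 without both libraries and 0 with the limit. The share of all genes called in either direction went from 23.0% to 46.1% without DMSO replicate 1. It is not given here for the other alternative fits, so their counts cannot be set against all genes. The median of -0.16 became -0.26 with library size only, where that of all genes became -0.11. Leaving out each library in turn gave 8 to 24 lower and 1 to 3 higher genes, 19 to 53 lower and 3 to 7 higher related genes, and medians of -0.23 to -0.13, the extremes of 24 and 53 without DMSO replicate 1. Whether replicate numbers pair the libraries is not settled here. Correlations of same-numbered deviations ran from -0.267 to 0.484, and the authors' model accounted for repeated measures that their methods do not define. With the replicate number as a block, 9 genes were lower and 1 higher, with a median of -0.16, and BBS1, CEP164 and BBS2 lost their calls (adjusted p = 0.069, 0.094 and 0.093 by edgeR). The length correction and leaving out both libraries were chosen after seeing the data. Counts of 12 to 43 in BBS1 limit its precision.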
